A study of Mus musculus with 4 samples.

Results

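The 10 genes described here make up the core of the transforming growth factor beta (TGF-beta) pathway: the ligand gene Tgfb1, the latency protein gene Ltbp3, the receptor genes Tgfbr1 and Tgfbr2, the signal carriers Smad2, Smad3 and Smad4, and the nuclear repressor genes Ski, Skil and Tgif1. They were chosen by symbol, and all 10 were found among the 14435 genes of the deposited expression table. The sequenced RNA came from RAW264.7, a mouse macrophage cell line, exposed for 12 hours to Escherichia coli lipopolysaccharide (LPS). 2 libraries came from cells transfected with a nonspecific shRNA (control) and 2 from cells transfected with an shRNA against Mettl3 (knockdown), the catalytic subunit of the enzyme that writes N6-methyladenosine (m6A) on mRNA. All 4 libraries had LPS, so none shows what LPS itself does, and the title of the series sets the comparison in the question of how METTL3 acts on the LPS response. No label tells whether replicate libraries stem from separate cultures or clones, so p-values reflect only the spread among these samples and that spread may be technical.

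In the TGF-beta pathway a dimeric ligand is made as a precursor, cut by furin-type proteases and held in a latent complex until it is freed at the cell surface or in the matrix. The active ligand binds the type II receptor TGFBR2, which recruits and phosphorylates the type I receptor TGFBR1. That receptor phosphorylates SMAD2 and SMAD3, which join SMAD4 and act on genes in the nucleus, where SKI, SKIL and TGIF1 recruit co-repressors. In macrophages the pathway is known for restraining inflammatory output and for maintaining tissue-resident programmes.

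The library totals lay between 16342313 and 17193639 estimated counts. Mettl3 stood at 30.9 and 29.9 CPM (counts scaled to the size of each library with TMM factors) in the controls and at 11.5 and 11.2 CPM after its knockdown, which gives a log2 fold change of -1.42 (SE 0.10). Its counts are not whole, as when reads are divided between genes, so its value carries that uncertainty. One label of knockdown replicate 2 names METTL4 in place of METTL3. Mettl4 did not differ beyond its spread (-0.04, SE 0.09), and values without that library are given where the results turn on it. Calls rest on an edgeR quasi-likelihood fit with a Benjamini-Hochberg adjusted p under 0.05 across 11035 tested genes, 43.7% of which were called. With TMM scaling 48.9% of all calls were rises, against 64.1% with library size alone and 69.9% with the authors' TPM. The median log2 change over every tested gene was 0.01, 0.11 and 0.15 in turn, so changes are relative to the TMM scale. All 12 macrophage markers had at least 10 counts in every library, and their summed level was 17547 and 16964 TPM (a level per transcript length) in the controls and 11902 and 11835 TPM in the knockdown libraries. Much of this sum was Lyz2 alone, at 10293 and 9350 TPM in the controls and 5955 and 5779 TPM in the knockdown libraries. Of the 12 markers, 7 fell and 1 rose, and the part of these markers in the results on TGF-beta genes was not tested. Markers of fibroblasts summed to between 2.18 and 3.64 TPM, of lymphocytes to between 4.73 and 6.17 TPM, of dendritic cells to between 38.9 and 46.8 TPM, and of neutrophils and mast cells to between 39.1 and 41.8 TPM. Of 3 tested fibroblast markers 2 rose and 1 fell. Of 3 tested dendritic cell markers 1 fell, Itgax, from 22.3 and 30.7 CPM to 5.24 and 5.06 CPM. The 1 lymphocyte marker and the 2 neutrophil and mast cell markers tested were not called. Among all tested genes 21.4% rose and 22.3% fell. In bulk RNA, fewer cells of a type and less RNA per cell cannot be told apart.

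The promoters of the 3 called genes are shown because these genes moved in opposite directions. RefSeq windows on GRCm38.p6, from 250 bases before to 50 after the start, were at hand for 7 of the 10 genes. The window of Tgfb1 is chr7:25686752-25687051 on the plus strand, that of Tgfbr1 chr4:47352972-47353271 on the plus strand and that of Tgfbr2 chr9:116175314-116175613 on the minus strand, each covering the start of the first exon. Tgfbr1 has another RefSeq start, whose window is not shown. Capitals mark the GC box (GGGCGG) and the CCAAT box (CCAAT), searched on both strands.
Tgfb1: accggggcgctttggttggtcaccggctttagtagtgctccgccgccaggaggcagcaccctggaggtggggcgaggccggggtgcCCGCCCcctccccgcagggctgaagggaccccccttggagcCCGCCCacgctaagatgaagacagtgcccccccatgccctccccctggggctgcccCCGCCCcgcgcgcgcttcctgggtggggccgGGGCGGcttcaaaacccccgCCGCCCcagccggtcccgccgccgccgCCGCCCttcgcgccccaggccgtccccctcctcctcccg
Tgfbr1: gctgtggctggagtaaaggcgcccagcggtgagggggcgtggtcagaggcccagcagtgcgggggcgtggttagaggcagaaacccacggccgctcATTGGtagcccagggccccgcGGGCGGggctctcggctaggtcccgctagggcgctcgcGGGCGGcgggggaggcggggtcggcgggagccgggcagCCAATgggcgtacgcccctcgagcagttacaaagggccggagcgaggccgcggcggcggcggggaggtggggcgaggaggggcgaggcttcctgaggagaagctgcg
Tgfbr2: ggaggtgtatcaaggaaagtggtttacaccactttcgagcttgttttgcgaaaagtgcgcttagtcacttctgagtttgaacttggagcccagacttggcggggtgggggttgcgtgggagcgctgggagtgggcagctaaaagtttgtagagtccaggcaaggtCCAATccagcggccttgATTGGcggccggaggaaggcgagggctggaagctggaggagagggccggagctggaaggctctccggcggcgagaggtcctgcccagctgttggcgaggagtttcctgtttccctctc
The Tgfb1 window held 6 GC boxes and 0 CCAAT boxes, the Tgfbr1 window 2 of each, and the Tgfbr2 window 0 GC boxes and 2 CCAAT boxes. Of all 32851 promoter windows of this length in the table, 35.7% held a GC box and 37.4% a CCAAT box. None of the 3 windows held the SMAD palindrome GTCTAGAC (0.213% of all windows), the CAGA box CAGACA (21.0%) or the AP-1 site TGANTCA (7.81%), on either strand, which says only that these letters are not in these windows. The Tgfbr1 window that is not shown held 1 CAGA box, 0 SMAD palindromes and 0 AP-1 sites. The GC content was 77.0% for Tgfb1, 74.7% for Tgfbr1 and 59.0% for Tgfbr2, beside a median of 52.7% over all windows.

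Since METTL3 methylates adenosine within short sequence contexts, of which GGACT in the DNA alphabet is a frequent one, its occurrences were counted in one GENCODE M21 transcript of each gene. Tgfb1 held 5, which is 2.30 per kilobase of its 2175 bases, the highest density of the 10 genes. Of these, 2 were coding and 0 lay in its 3′ UTR, the rest being in the 5′ UTR. Tgfbr1 held 3 (1 coding, 2 in the 3′ UTR) and Tgfbr2 held 3, all in the 3′ UTR. The other genes held between 1 (Tgif1) and 6 (Smad2). The median over 10851 tested genes with a transcript was 3 occurrences and 1.05 per kilobase. The coding occurrences of the called genes are given with 12 bases on each side and GGACT in capitals, and positions are counted from the A of the start codon.
Tgfb1 coding position 85: aggccagccgcgGGACTctccacctgcaa
Tgfb1 coding position 303: ggagcccgaagcGGACTactatgctaaag
Tgfbr1 coding position 1057: attgcagacttgGGACTtgctgtgagaca
On GRCm38 these windows lie at chr7:25687941-25687969 and chr7:25688159-25688187 in exon 1 of the 7 exons of Tgfb1, and at chr4:47403441-47403469 in exon 6 of the 9 exons of Tgfbr1. Whether any of them carries m6A was not measured.

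Among the members, the ligand gene and the receptor genes moved, while no SMAD or nuclear repressor gene was called. Tgfb1 and Tgfbr2 fell and Tgfbr1 rose, so that 2 of 9 tested members fell, where 22.3% of all tested genes fell, and 1 rose, where 21.4% rose. These shares are near the background. 7 of the 9 had groups that did not overlap in CPM, as did 73.4% of all tested genes. The median log2 fold change of the 9 was -0.06, beside 0.01 for all tested genes.

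**Figure D1:**
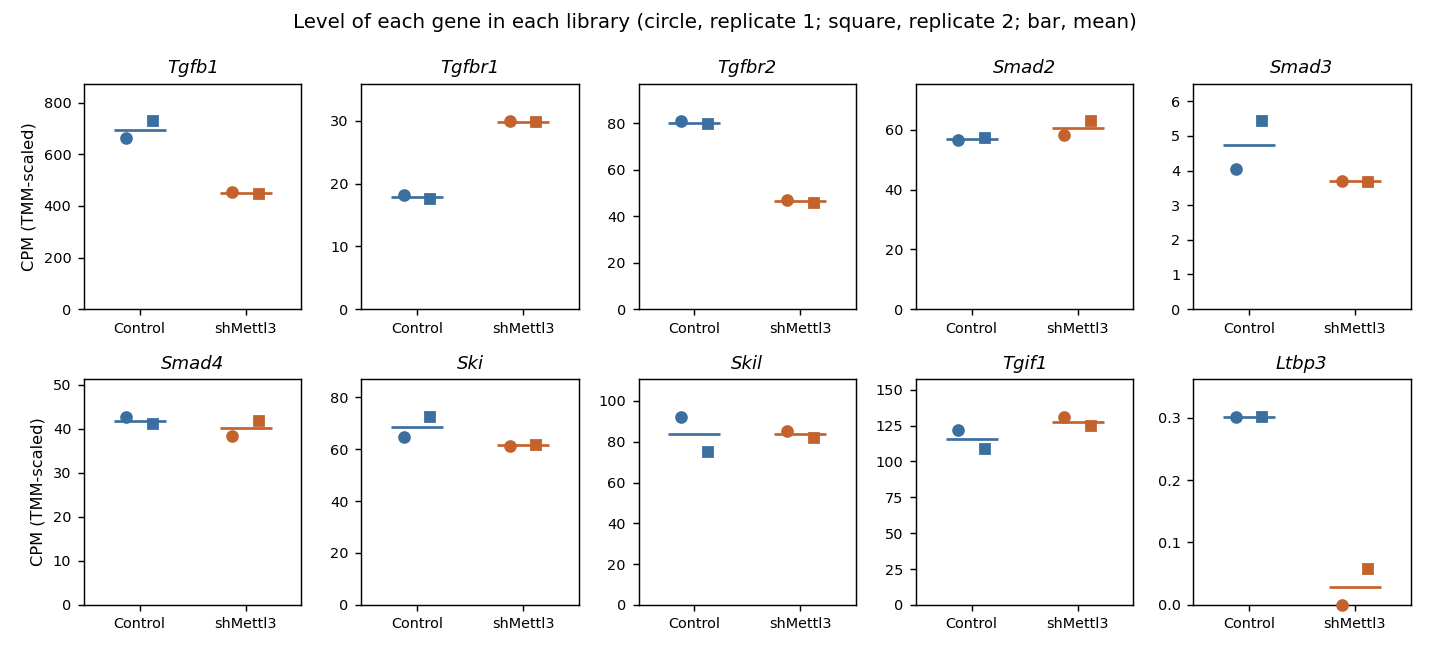
Level of each of the 10 genes in CPM (linear axes from 0) in the 2 control libraries (blue) and the 2 knockdown libraries (orange); circles are replicate 1, squares replicate 2 and bars group means. Tgfb1 and Tgfbr2 lay lower and Tgfbr1 higher in both knockdown libraries, and the groups of Smad4 and Skil overlapped.

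Tgfb1 (Entrez gene 21803) encodes the precursor of the main ligand of immune cells. It had 11038 and 12092 estimated counts with the control shRNA, against 7664 and 7738 in the knockdown libraries. This is 664 and 729 CPM against 456 and 445 CPM. Both knockdown libraries lay below both controls, and the controls differed from each other more than the knockdown libraries did. The log2 fold change was -0.63 (SE 0.07, edgeR quasi-likelihood, Benjamini-Hochberg adjusted p = 5.33e-05), a level 0.647 times that of the controls. It was -0.61 without knockdown replicate 2. Tgfb1 had the highest level per length of the 10 genes in every library, with 519 TPM ± 22.4 (SD, n = 2) in the controls and 371 TPM ± 6.19 (SD, n = 2) in the knockdown group.

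The family has other ligand genes. Tgfb3 went the other way, from 7.88 and 6.93 CPM in the controls to 33.6 and 38.8 CPM in the knockdown libraries (log2 fold change 2.29, SE 0.12, edgeR quasi-likelihood, Benjamini-Hochberg adjusted p = 1.89e-07). The lowest knockdown value was above the highest control value by a wide margin. In level per length Tgfb3 was a minor part of the ligand RNA: 0.735% and 0.591% of the summed TPM of Tgfb1, Tgfb2 and Tgfb3 in the control libraries, against 4.43% and 5.17% after knockdown. The summed ligand level was 507 and 538 TPM with the control shRNA and 392 and 386 TPM with the Mettl3 shRNA, groups that did not overlap and were not tested. Tgfb2 had 1 and 0 counts with the control shRNA and 2 and 0 with the Mettl3 shRNA, too few to compare.

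Ltbp3, a latent TGF-beta binding protein that anchors the latent complex in the matrix, was nearly absent. Its libraries held 5 and 5 counts with the control shRNA and 0 and 1 with the Mettl3 shRNA. It was below the filter on low counts, so it was not tested. Over the groups this is 10 counts against 1, a ratio of 0.0971 after scaling, with a 95% interval of 0.00224 to 0.683 (exact binomial, counting error only). This interval sums the libraries of each group and leaves out any spread between them beyond counting error, so it is no test of a change.

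The list of other ligands, latency proteins and activators had 12 of 20 members tested, of which 3 rose and 3 fell, with a median of -0.32. For this and the lists that follow, 21.4% of all tested genes rose and 22.3% fell. Nrros, which encodes the protein that tethers latent TGF-beta to macrophage and microglial surfaces, fell from 181 and 185 CPM to 121 and 117 CPM (log2 fold change -0.62, SE 0.07). Furin, the protease gene whose product cuts the ligand precursor, fell from 226 and 253 CPM to 116 and 121 CPM (-1.02, SE 0.08). Both genes had knockdown libraries well below the controls. The integrin gene Itgb5 rose by 0.27, a call lost in 5 of 14 alternatives. The remaining calls, named after their values were seen, were the protease gene Mmp14 (-1.51) and Fbn1, which encodes the matrix protein fibrillin (1.93), both under 5 CPM in each group. The number that rose was 1 in DESeq2, without control replicate 2 and without knockdown replicate 1.

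The receptor genes moved in opposite directions. Tgfbr2 (Entrez gene 21813), the ligand-binding type II receptor, held 1344 and 1321 estimated counts with the control shRNA against 790 and 797 with the Mettl3 shRNA, which is 80.9 and 79.6 CPM against 47.0 and 45.8 CPM. Within each group the libraries nearly coincided and the groups lay far apart. Its log2 fold change was -0.79 (SE 0.07, edgeR quasi-likelihood, Benjamini-Hochberg adjusted p = 9.35e-06), and -0.77 without knockdown replicate 2.

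Tgfbr1 (Entrez gene 21812), the type I receptor that phosphorylates the SMADs, held 302 and 292 estimated counts with the control shRNA against 503 and 519 with the Mettl3 shRNA. In CPM this is 18.2 and 17.6 against 29.9 and 29.8, again with replicates close together and no overlap. Its log2 fold change was 0.74 (SE 0.09, edgeR quasi-likelihood, Benjamini-Hochberg adjusted p = 9.34e-05), also 0.74 without knockdown replicate 2. Per length, Tgfbr2 exceeded Tgfbr1 in every library, by 5.42 and 5.51 times in the control libraries, and by 1.91 and 1.86 times after knockdown. The ratio was thus 2.89 times lower in the knockdown group, with groups that did not overlap, and ratios were not tested. In the order of levels per length, Tgfbr2 ranked 3 of 10 in the controls (26.4 TPM) and 6 of 10 in the knockdown group (16.9 TPM), below Skil, Ski and Smad4. Tgfbr1 ranked 8 in both, at 4.83 and 8.93 TPM. Ski, Skil and Smad4 lay close together in that order: Ski overlapped Skil and Skil overlapped Smad4 in the controls, and Ski overlapped Smad4 in the knockdown group.

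**Figure D2:**
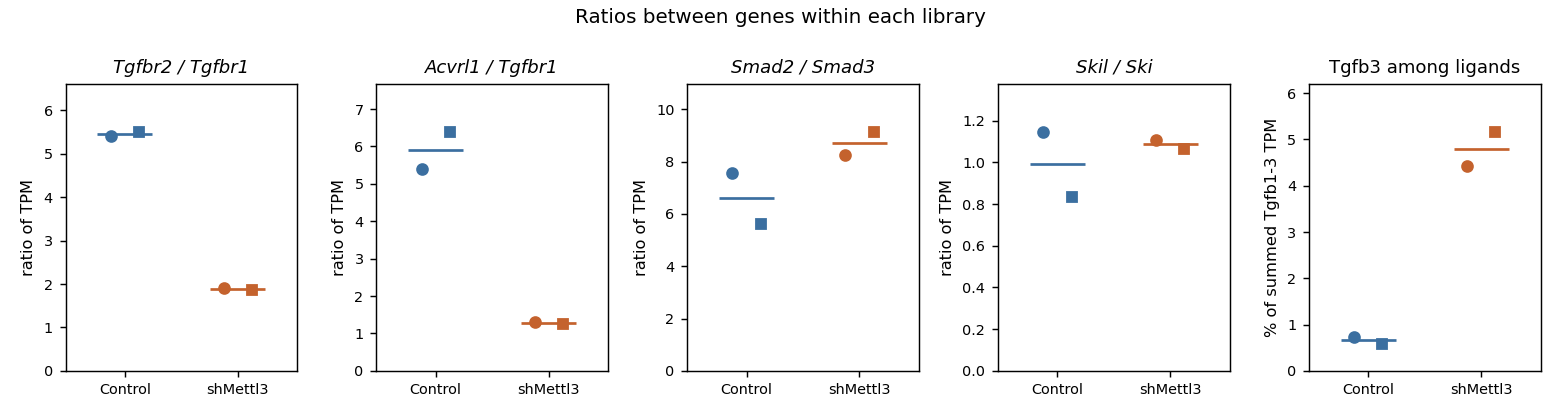
Ratios of levels per length (TPM) between genes within each library, and the share of Tgfb3 in the summed TPM of the 3 ligand genes (%); blue is control, orange knockdown, circles replicate 1, squares replicate 2, bars group means. The Tgfbr2 to Tgfbr1 ratio lay at 5.42 and 5.51 in the control libraries, against 1.91 and 1.86 after knockdown, while the Skil to Ski groups overlapped.

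Among the other receptors and their regulators, 13 of 16 listed genes were tested, of which 5 fell (38.5%, where 22.3% of all tested genes fell) and 1 rose (7.69%, where 21.4% rose), with a median of -0.18. Acvrl1, a type I receptor best known from endothelium that also binds BMP ligands, fell from 60.9 and 70.0 CPM to 24.5 and 23.3 CPM (-1.45, SE 0.09). Its level per length had been 5.40 and 6.40 times that of Tgfbr1 in the controls and was 1.31 and 1.25 times that of Tgfbr1 in the knockdown libraries, a pair chosen after its values were seen. Eng, the co-receptor endoglin, fell from 53.4 and 45.5 CPM to 25.7 and 23.6 CPM (-1.004, SE 0.10). Both stood lower in each knockdown library than in either control.

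Pmepa1, which encodes a membrane protein that takes SMAD2 and SMAD3 away from the receptor, fell from 94.5 and 87.9 CPM to 41.6 and 36.5 CPM (-1.22, SE 0.08). Cd109, a GPI-anchored TGF-beta co-receptor gene, rose from 2.47 and 2.47 CPM to 12.7 and 11.7 CPM (2.30, SE 0.16). The other falls were Strap (-0.27) and Zfyve9 (-1.86), named after their values were seen. Zfyve9, the anchor protein that presents SMADs to the receptor, was under 2 CPM in every library. Without knockdown replicate 2 there were 3 falls. The number that rose was 2 without that library, without control replicate 1, at a mean CPM of at least 5, and with library size, FPKM or TPM as the scale. Tgfbr3, the co-receptor betaglycan, was not analysed here.

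The SMAD genes did not pass the test. Smad2 (Entrez gene 17126) had 56.6 and 57.2 CPM in the controls and 58.4 and 62.9 CPM in the knockdown libraries, with a log2 fold change of 0.09 (95% interval -0.07 to 0.26). The knockdown libraries lay just above the controls. Smad3 (Entrez gene 17127), the other receptor-activated SMAD, was low, with 67 and 90 counts against 62 and 64. Its log2 fold change of -0.36 has a 95% interval of -0.81 to 0.10, which takes in the change of Tgfb1 as well as no change. It was -0.57 and called without control replicate 1 (edgeR quasi-likelihood, Benjamini-Hochberg adjusted p = 0.0416), the library with the lower of the control values. On the TPM scale its groups overlapped, at 1.33 and 1.76 against 1.38 and 1.33.

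Per length, Smad2 exceeded Smad3 in every library, by 7.57 and 5.63 times in the control libraries, and by 8.25 and 9.15 times after knockdown. The groups did not overlap, but the controls differed from each other by more than the distance from the higher of them to the lower knockdown library. Smad4 (Entrez gene 17128), the common partner, had 42.7 and 41.0 CPM against 38.4 and 41.7 CPM, with overlapping groups. Its log2 fold change of -0.06 (95% interval -0.24 to 0.12) turned to 0.03 with library size as the scaling and to 0.21 on log2(TPM + 0.1), without a call. Smad4 is the one member with counts that are not whole, as when reads are divided between genes, so its value carries that uncertainty.

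The nuclear repressor genes also did not pass. Ski (Entrez gene 20481) had 64.5 and 72.4 CPM in the controls and 61.3 and 61.7 CPM in the knockdown libraries, and its log2 fold change was -0.15 (95% interval -0.33 to 0.02). The knockdown values lay below both controls in CPM but between them in TPM. Without control replicate 1 the gene was called at -0.25 (edgeR quasi-likelihood, Benjamini-Hochberg adjusted p = 0.011). Skil (Entrez gene 20482), which encodes SnoN and is itself a known SMAD target, had 92.1 and 75.1 CPM in the controls and 85.1 and 82.0 CPM in the knockdown libraries. Both knockdown values lay between the controls in CPM. In TPM knockdown replicate 1 lay just above both controls, at 21.47 against 21.43 and 16.95. The log2 fold change of Skil was -0.0017 (95% interval -0.21 to 0.21), and its sign turned with the setting.

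Tgif1 (Entrez gene 21815), a homeodomain repressor, was the second most abundant of the 10 genes per length in both groups. It stood at 122 and 109 CPM in the controls and 131 and 125 CPM in the knockdown libraries, both above the controls (log2 fold change 0.15, 95% interval -0.02 to 0.32). It was called as a rise in 5 of 14 alternatives, those with library size, FPKM or TPM as the scale and that without control replicate 1, at between 0.22 and 0.29. Ski and Skil were close to each other per length, and their ratio overlapped between groups, at 1.15 and 0.835 in the control libraries, against 1.11 and 1.06 after knockdown.

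**Figure D3:**
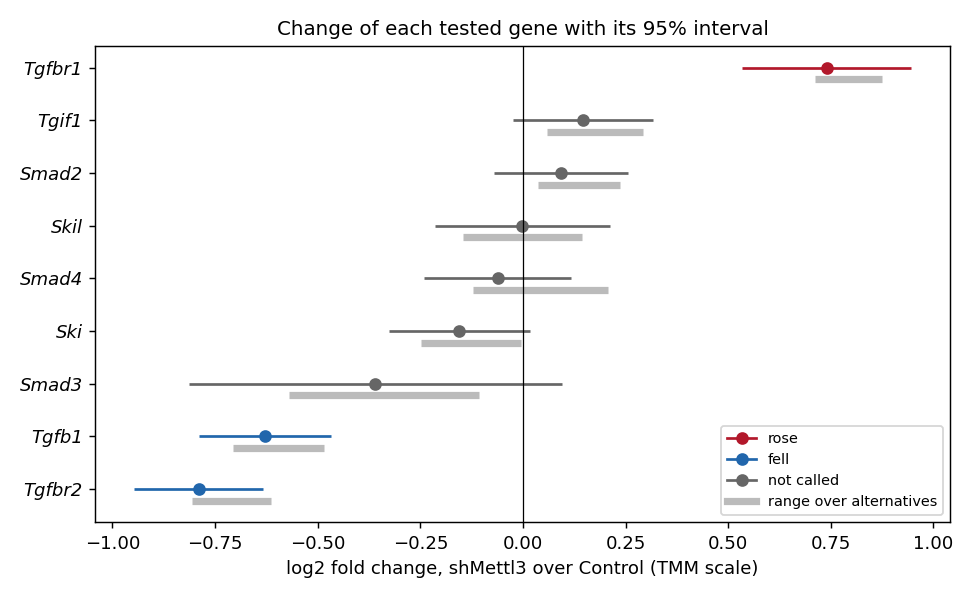
Log2 fold change of the 9 tested genes, knockdown over control, with 95% intervals (coloured by call) and, in grey, the range over all alternative settings. Tgfb1 at -0.63, Tgfbr2 at -0.79 and Tgfbr1 at 0.74 have intervals and ranges away from 0, while the intervals of the other 6 genes include 0.

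Of the inhibitory SMADs, ubiquitin ligases and SMAD enzymes, 20 of 21 were tested, 4 fell (20.0%) and 2 rose (10.0%), with a median of 0.01. Smad6, an inhibitory SMAD gene that acts mainly on BMP signals, fell from 8.79 and 9.28 CPM to 2.92 and 2.93 CPM (-1.63, SE 0.17). Smad7, the inhibitory SMAD gene of the TGF-beta arm, had 83 and 78 counts against 61 and 55, a fall of 0.51 on the log2 scale (SE 0.19) close to the threshold (edgeR quasi-likelihood, Benjamini-Hochberg adjusted p = 0.049). It was not called in 10 of 13 alternatives, including each that left out a library. Smurf1, a ubiquitin ligase gene for SMADs and receptors, fell from 39.9 and 38.1 CPM to 23.1 and 24.0 CPM (-0.73, SE 0.09).

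The ubiquitin ligase gene Stub1, whose counts are not whole, fell (-0.22), a call lost in 8 of 14 alternatives. With Stub1 and Smad7 both uncalled, 2 genes of this list fell in DESeq2, with library size, FPKM or TPM as the scale, and without either knockdown library. The deubiquitinase gene Uchl5 rose (0.50), as did the phosphatase gene Ctdsp1 (0.27), which lost its call without knockdown replicate 1. The number that rose was 1 without that library and 4 without control replicate 1.

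SMAD co-activators, co-repressors and partners had 22 of 24 members tested, of which 7 fell (31.8%) and 4 rose (18.2%), with a median of 0.00. The DNA-binding partner Runx1 fell by 0.45 and Foxo3, a forkhead partner of SMADs, by 0.41. Jun, a subunit of AP-1 that binds with SMADs, rose from 54.7 and 62.4 CPM to 77.3 and 90.1 CPM (0.52, SE 0.09). Sin3a, the scaffold of a co-repressor complex (0.46), and the acetyltransferase gene Crebbp (0.37) rose too. The number that fell was 4 with library size as the scale and without knockdown replicate 1, and 3 with FPKM and TPM. Foxo3 was not called with FPKM or TPM. In the non-SMAD branch, all 15 listed genes were tested, 2 fell (13.3%) and 2 rose (13.3%), with a median of 0.03. Shc1, an adaptor for receptor tyrosine signals, fell by 0.49. Pak2 (-0.28), Xiap (0.29) and Ppp2r2a (0.23) were called with smaller changes, which lost their calls in 6, 5 and 3 of 14 alternatives. Of this list 4 genes rose and 1 fell with library size, FPKM or TPM as the scale. On those scales rises were 64.1%, 63.0% and 69.9% of the calls among all tested genes, against 48.9% with TMM. Leaving out 1 library gave 0 (knockdown replicate 1) to 3 rises and 1 (either knockdown library) to 4 (control replicate 1) falls.

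**Figure D4:**
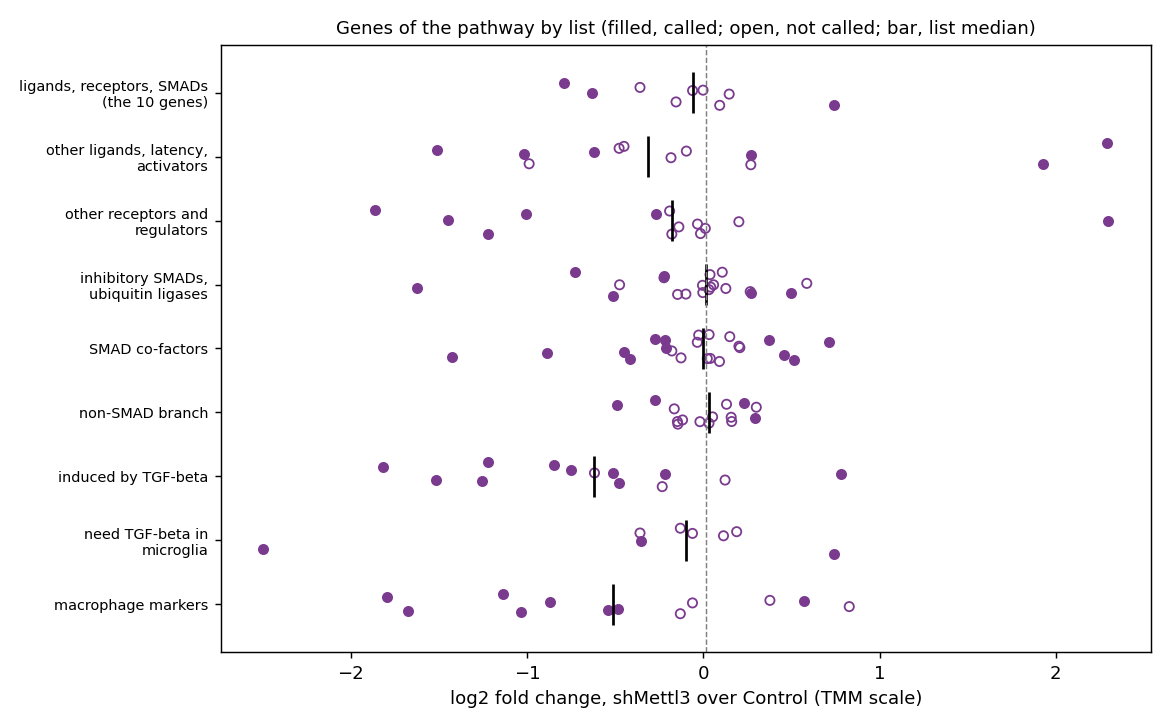
Log2 fold change (knockdown over control) of each tested gene by list; filled points were called, open points were not, black bars are list medians and the dashed line is the median of all tested genes. The list of genes induced by TGF-beta has a median of -0.62 with 9 called falls and 1 called rise. All lists were chosen with earlier results of these data known.

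Genes known to be induced by TGF-beta in various cell types had 13 of 22 members tested, of which 9 fell (69.2%, where 22.3% of all tested genes fell) and 1 rose. Their median was -0.62, beside 0.01 for all tested genes and -0.51 for the 12 macrophage markers, of which 58.3% fell. This list, like the others, was chosen with earlier results of these data known, so its share is a description and not a test. The number that fell was between 6 and 9 in all alternatives. With library size, FPKM or TPM as the scale the number that rose was 2. Without knockdown replicate 2 it was 4, the added genes being Col1a1, Col1a2 and Fn1. Hmox1, the haem-degrading enzyme that many stress signals induce, fell from 1258 and 1310 CPM to 506 and 570 CPM (-1.25, SE 0.08). Pmepa1 and Smad7, described above, belong to this list as well. Klf10, an early TGF-beta response transcription factor, fell from 28.8 and 21.1 CPM to 14.6 and 15.1 CPM (-0.75, SE 0.15). The member that rose was Tsc22d1, first found as a TGF-beta-stimulated transcript, from 12.3 and 13.1 CPM to 22.4 and 21.3 CPM (0.78, SE 0.11). The matrix genes Col1a1, Col1a2 and Fn1 were below the filter with all 4 libraries. Each had 0 counts in both controls, and knockdown replicates 1 and 2 held 17 and 1 counts of Col1a1, 15 and 0 of Col1a2 and 25 and 0 of Fn1. Nearly all counts of these genes thus came from knockdown replicate 1.

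Of 16 genes known to need TGF-beta in microglia and resident macrophages, 8 were tested, 2 fell and 1 rose, the last being Tgfbr1 itself (median -0.10). Tmem119, a microglial surface protein gene, fell from 92 and 90 counts to 15 and 18 (-2.50, SE 0.24), or 5.54 and 5.42 CPM to 0.892 and 1.03 CPM. P2ry12 of the same list went the other way, from 1 and 1 counts to 16 and 9. It was below the filter and is named after its values were seen. With no filter on low counts, 2 genes of this list rose. The number that fell was 1 on the TPM scale, at a mean CPM of at least 5 and without knockdown replicate 2. Without control replicate 1 the number that rose was 3, and it was 2 without control replicate 2 or knockdown replicate 2. Over the 7 pathway lists, with the 10 members left out, 30 of 99 tested genes fell (30.3%) and 13 rose (13.1%), with a median of -0.10, where 22.3% and 21.4% of all tested genes fell and rose. The balance moved with the scaling: 22 fell and 19 rose with library size, 22 and 17 with FPKM, and 20 and 19 with TPM. All tested genes moved as well: rises were 48.9% of their calls with TMM, 64.1% with library size, 63.0% with FPKM and 69.9% with TPM. In the lists, falls outnumbered rises on each of these scales.

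**Figure D5:**
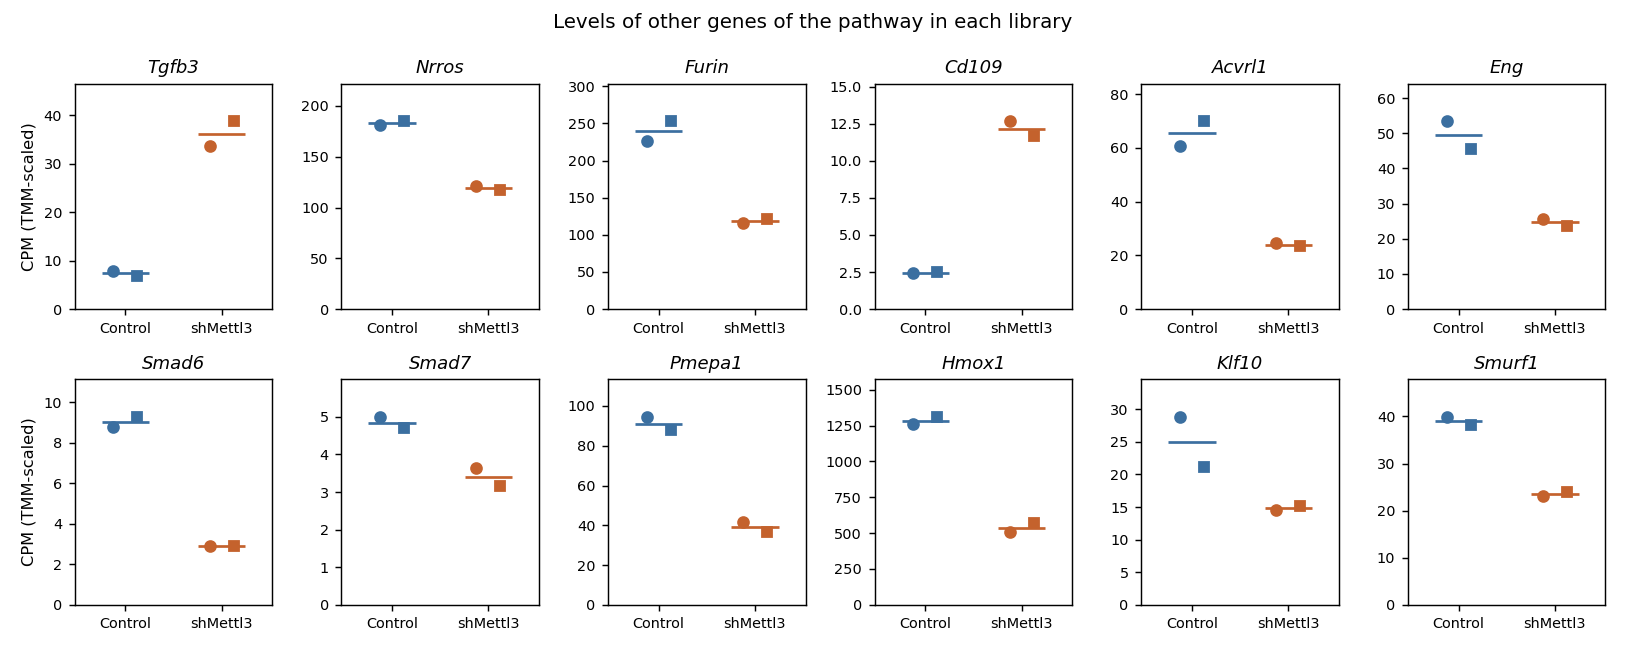
Level in CPM (linear axes from 0) of 12 other genes of the pathway in the 2 control (blue) and 2 knockdown (orange) libraries; circles are replicate 1, squares replicate 2, bars group means. Tgfb3 and Cd109 lay higher in both knockdown libraries and the other 10 genes lower, with no overlap between groups. Furin, Cd109, Acvrl1, Smad6, Hmox1 and Smurf1 were named by a rule that requires groups without overlap. Of all tested genes 73.4% had groups without overlap.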

How the data were processed

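RNA was measured in 4 libraries of RAW264.7 cells, 2 per group, grouped by sample title. Full-length cDNA was made by oligo-dT priming with template switching and PCR and read from a single end, per the labels' protocols, which describe neither strand marking nor molecular identifiers, so antisense partners cannot be told apart. The tools listed are RSEM 1.2.12, Bowtie2 2.2.5 and HISAT2 2.0.4 and the build mm9, per the submitters' processing notes, with no role stated. For annotation and filters, nothing is given in the sources used here. Deposited by the authors were estimated counts, not normalized, beside FPKM and TPM values scaled to length and library, per the file headers. The table holds 0 columns of other samples. 21 symbols that had been turned into dates were restored by Entrez identifier.

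Counts were rounded and tested with edgeR 4.0.16 (R 4.3.3, quasi-likelihood, robust, TMM) on the group, with filterByExpr (minimum count 10, minimum total 15), which left 11035 genes and removed 3400. Each SE divides the absolute log2 change by the root of its F statistic, and intervals use the degrees of freedom of that test. The code was tested on simulated data. Replicates did not agree within sampling noise (chi-square over degrees of freedom 11.5 for the controls and 4.15 for the knockdown libraries), so none were merged for the tests. Only the interval of Ltbp3 sums counts over replicates. Alternatives were library size scaling, DESeq2 1.42.0, limma-voom (limma 3.58.1), no filter, a mean CPM of at least 5, no robust fitting, limma on log2 FPKM and TPM (pseudocount 0.1, for TPM also 1), a replicate block and each library left out.

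The 10 members and the lists were chosen with earlier results of these data known. Named genes are the 10 members, Mettl3 and Mettl4, Tgfb2, Tgfb3, Tgfbr3, Eng, Nrros, Smad7, Pmepa1 and Klf10, and in each pathway list the 3 largest called rises and 3 largest called falls with groups apart and at least 5 CPM in the higher group; some genes that the rule names are not reported here. Promoters came from RefSeq (GRCm38.p6) and transcripts from GENCODE M21 (GRCm38), the principal or else the longest coding transcript; no coordinates of the mm9 files were used.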

Additional observations from a re-analysis of the deposited data

How the results depend on the processing

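Tgfb1, Tgfbr1 and Tgfbr2 kept their direction and their call in all 14 alternatives, with log2 fold changes between -0.71 and -0.49, 0.71 and 0.88, and -0.81 and -0.61. Without 1 library at a time, between 3095 and 5324 genes were called in all (3095 without knockdown replicate 1, against 4826), 1 or 2 members rose and 2 to 4 fell (2 and 4 without control replicate 1), and over the pathway lists 7 to 20 rose (20 without control replicate 1 and 7 without knockdown replicate 1) and 21 to 32 fell. With library size, FPKM and TPM (either pseudocount) 2 members rose, the added one being Tgif1 at 0.24, 0.24, 0.29 and 0.29. DESeq2 called 8 rises over the pathway lists, against 13. Leaving out 1 library gave between -0.57 and -0.14 for Smad3, -0.25 and -0.075 for Ski, 0.060 and 0.22 for Tgif1, and -0.15 and 0.14 for Skil. Smad4, uncalled throughout, turned to 0.034 with library size, 0.15 with FPKM and 0.21 and 0.20 with TPM (pseudocounts 0.1 and 1). Skil, uncalled throughout, turned to 0.093 with library size, 0.0055 with limma-voom, 0.0064 with a mean CPM of at least 5, 0.087 with FPKM, 0.14 and 0.14 with TPM, 0.0042 with the replicate block, 0.14 without control replicate 1 and 0.024 without knockdown replicate 2. The cause of these shifts was not tested.

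The labels share replicate numbers but do not say that they pair libraries. Across genes with a mean of at least 5 CPM the deviations of same-numbered libraries had a correlation of 0.21, which is a hint from the data and not the design. With the replicate block 5116 genes were called, and no member changed its call. Depth limits genes with under 100 counts in each library, among them Smad3 and Ltbp3 of the members and Tgfb2, Smad7, Tmem119, Mmp14, Zfyve9 and Fbn1 of the lists. Ratios of FPKM gave the same directions as ratios of TPM.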

Other observations

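Across 10851 tested genes with a transcript, the number of GGACT occurrences was set beside the change. Genes with 0 occurrences had a median log2 fold change of 0.02 (n = 873), those with 1 to 2 had 0.02 (n = 3450), those with 3 to 5 had 0.005 (n = 4071), those with 6 to 9 had 0.02 (n = 1897) and those with 10 or more had -0.03 (n = 560), with no steady order. In the same classes the share of called falls increased at each step, at 20.6%, 21.7%, 22.8%, 23.1% and 28.0%. The share of called rises had no such order, at 20.5%, 19.8%, 21.8%, 22.7% and 21.6%. Longer transcripts hold more occurrences and give more counts, and the part of length and depth in these shares was not tested.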
